A study of Homo sapiens with 24 samples.

Results

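Matrix metalloproteinases (MMPs) are zinc enzymes that cut collagen and other proteins of the extracellular matrix, and tissue inhibitors of metalloproteinases (TIMPs) bind and block them. Secreted MMPs leave the cell as inactive proenzymes, membrane-type MMPs act at the cell surface, and TIMPs set how much active enzyme remains. In melanoma these enzymes are studied for invasion through collagen and basement membrane, and the membrane-type enzyme MMP14 together with TIMP2 is known for activating the MMP2 proenzyme.

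The genes described are 10 of the 58735 gene identifiers counted in each library: 7 proteases (MMP1, MMP2, MMP3, MMP8, MMP14, MMP15 and MMP16) and 3 inhibitors (TIMP1, TIMP2 and TIMP3). They were taken by symbol and matched to Ensembl identifiers, and all 10 matched. The cells were HT-144, an established human melanoma line derived from a metastatic site, kept for 3 days in medium with insulin, transferrin and selenium but no stated serum. The 6 groups were mock, for which the labels name no oligonucleotide, siNegative (a negative control siRNA), siSREBF1 (siRNA against SREBF1), ASO-Neg (a negative control antisense oligonucleotide, or ASO), and the SREBF1 ASOs ASO-SREBF1-S1 and ASO-SREBF1-S4, called S1 and S4 here. ASOs were used at 5 nM and pooled siRNAs at 50 nM, both with Lipofectamine RNAiMAX. Each group was 1 library sequenced as 4 technical replicates, which were summed, so a group had no biological replicate. By its title the series asks what an ASO that depletes SREBF1, the gene of a transcription factor that turns on lipid synthesis, does specifically in melanoma cells.

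Libraries held 12916478 to 47900277 gene counts, with S1 the deepest, and levels are given as CPM, read counts scaled to library size (TMM). SREBF1 was at 229 CPM in mock, 220 in ASO-Neg and 248 in siNegative, against 78.2 in S1, 69.4 in S4 and 54.8 in siSREBF1. All 3 SREBF1-targeting libraries were below all 3 control libraries, and SREBF1 fell (log2 ratio -1.78, SE 0.12, adjusted p = 0.00164 by edgeR's quasi-likelihood test over all genes). With chemistry (none for mock, ASO or siRNA) as a term, edgeR called 0 genes, and the log2 ratio of SREBF1 was -1.83 with an adjusted p of 0.102. Mock had a level of its own in that fit and added nothing to the targeting effect, so fewer libraries measured the spread. All 10 melanoma and pigment cell markers were at or above 1 CPM in all 6 libraries, and their summed level was 4998 to 6441 CPM in the control libraries and 4296 to 5879 CPM in the targeting libraries. All 10 immune markers were under 1 CPM in all 6 libraries, and ELANE was at 0. Of 10 fibroblast markers, 6 were at or above 1 CPM in all 6 libraries, and DPT was at 0. Sums of the 10 were 704 to 924 CPM (control) and 685 to 966 CPM (targeting), mostly COL1A2 at 567 to 862 CPM. Sums of 6 endothelial markers were 38.5 to 42.4 CPM (control) and 37.7 to 59.1 CPM (targeting), mostly KDR at 34.1 to 56.5 CPM. Sums of 6 keratinocyte markers were 24.0 to 25.2 and 23.7 to 29.2 CPM, mostly KRT10 at 21.8 to 28.2 CPM. In both of these lists 4 markers were under 1 CPM in all 6 libraries, with CLDN5 and KRT1 at 0. In such bulk RNA, fewer cells of a type and less RNA per cell cannot be told apart.

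Of the 10 genes, MMP3 was under 1 CPM in all 6 libraries and the other 9 were above 1 CPM in all 6. Per kilobase of annotated exon, the scale on which different genes can be compared, TIMP3 had the highest level in all 6 libraries, at 266 to 436 CPM per kb. The next level was that of MMP14, at 179 to 236 CPM per kb, which did not overlap that of TIMP3. TIMP2 followed with 149 to 212 CPM per kb, below MMP14 in each of the 6 libraries although their ranges overlapped. TIMP1 came next with 98.7 to 161 CPM per kb, and in S4 it nearly met TIMP2 (161 against 162 CPM per kb). These 4 genes held 92.4% to 94.5% of the summed per-kb level of all 10 genes. The remaining proteases were lower, with MMP16 at 12.9 to 19.5 CPM per kb, MMP8 at 13.1 to 18.1, MMP15 at 8.63 to 12.1 and MMP2 at 5.47 to 10.6. MMP16 and MMP8 overlapped and changed order between libraries, as did MMP15 and MMP2, while MMP8 and MMP16 stayed above MMP15 and MMP2 in all 6. MMP1 had rank 9 of 10 in 5 of the 6 libraries, with 2.18 CPM per kb in mock, and rank 5 in siSREBF1, with 17.8 CPM per kb.

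**Figure D1:**
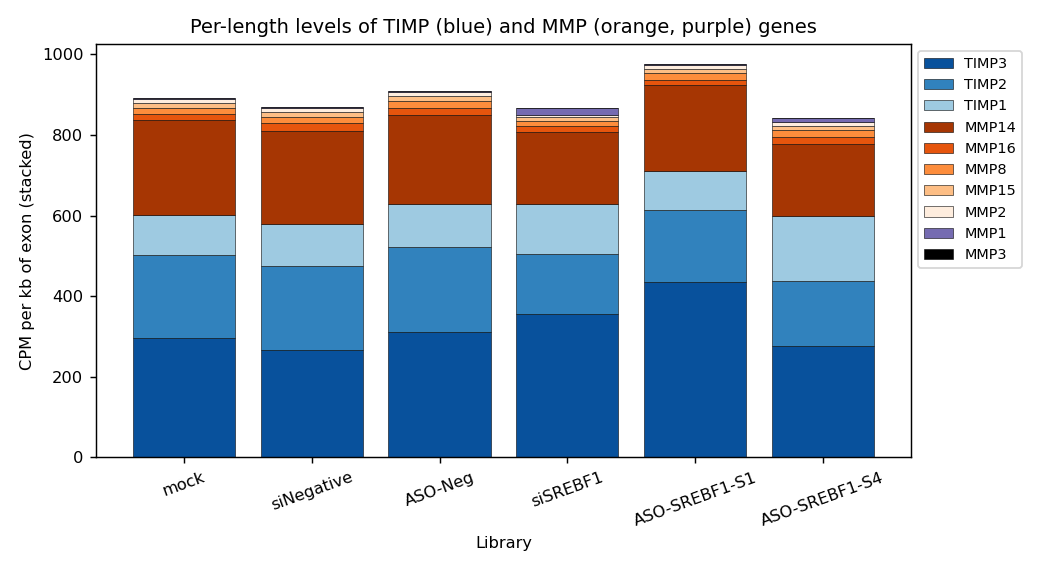
Stacked per-length levels (CPM per kb of annotated exon, vertical axis) of the 10 genes in each of the 6 libraries (horizontal axis), with TIMP genes in blue and MMP genes in orange and purple. TIMP3, MMP14, TIMP2 and TIMP1 fill 92.4% to 94.5% of each bar, and the other 6 genes share the rest.

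Summed over the 3 inhibitors and divided by the sum over the 7 proteases, the per-kb level was 2.08 in mock, 2.23 in ASO-Neg and 1.98 in siNegative. The same ratio was 2.68 in S1, 2.46 in S4 and 2.61 in siSREBF1. All 3 targeting libraries had a higher ratio of inhibitor to protease RNA than all 3 control libraries. Among all single genes tested, 16.4% separated the sides without overlap, in either direction. MMP14, the protease with the highest level, was lower in all 3 targeting libraries, at 212 CPM per kb in S1 and 179 in both S4 and siSREBF1. The control libraries had 222 to 236. Among the inhibitors the libraries differed. TIMP3 was at 436 CPM per kb in S1 and 356 in siSREBF1, above the 266 to 311 of the control libraries, but at 276 in S4. The protease sum was 241 CPM per kb in siSREBF1 and 243 in S4, against 282 to 292 in the control libraries. The inhibitor sums of these libraries, 627 and 599 CPM per kb, lay within the 579 to 629 of the control libraries. S1 had a protease sum of 265 and the highest inhibitor sum, 711 CPM per kb. TIMP2, an inhibitor, was itself lower in all 3 targeting libraries. These ratios describe RNA, not active enzyme, and depend on exon lengths taken over all annotated transcripts of a gene.

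**Figure D2:**
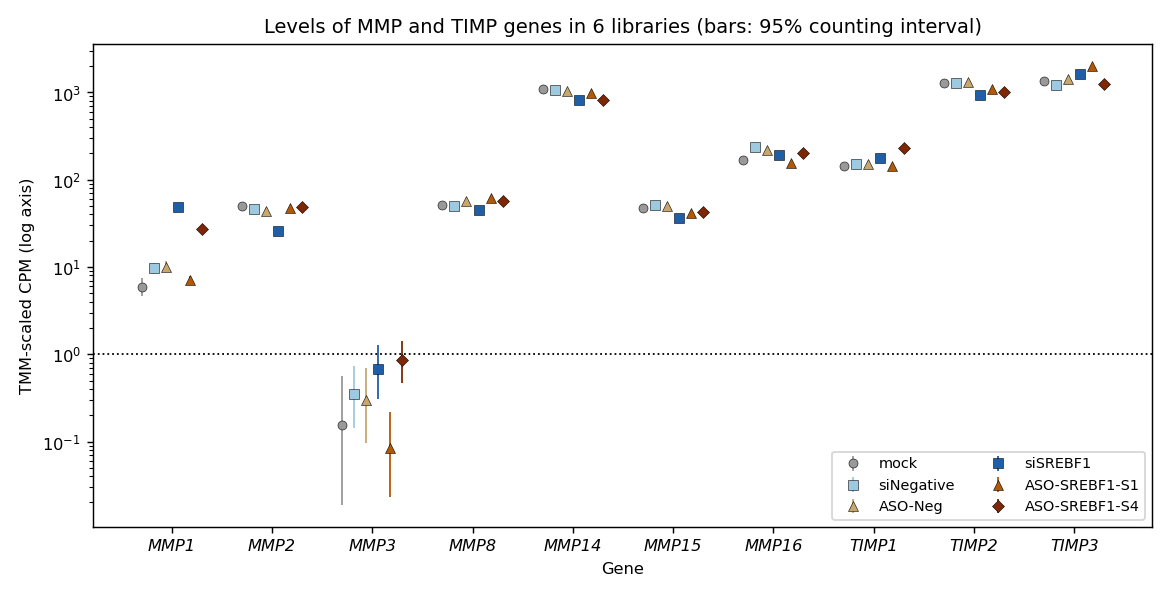
Levels (TMM-scaled CPM, log axis) of the 10 genes in the 6 libraries, 1 point per library with its 95% counting interval. MMP1 and MMP3 spread most between libraries, and MMP3 lies under 1 CPM throughout.

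MMP1, interstitial collagenase, cuts fibrillar collagen and lies on chromosome 11 (102789401 to 102798160, minus strand, in GRCh38 with GENCODE release 44), in the MMP gene cluster that also holds MMP3 (102835801 to 102843609) and MMP8 (102711796 to 102727050). It was at 5.96 CPM in mock, 10.1 in ASO-Neg and 9.67 in siNegative, against 7.03 in S1, 26.9 in S4 and 48.7 in siSREBF1. siSREBF1 and S4 were above all control libraries, while S1 lay between mock and the other control libraries, so the sides overlapped. Of the 10 genes it had the widest range, 3.01 on the log2 CPM scale. Over its matched control, the log2 ratio of MMP1 was 2.32 in siSREBF1 (95% counting interval 2.10 to 2.57), 1.40 in S4 (1.15 to 1.67) and -0.52 in S1 (-0.80 to -0.25). The S1 and S4 ratios share the ASO-Neg library. Each such ratio sets 1 library against 1 library and has no replicate check, and its interval covers counting error only.

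The 2 ASOs were used at the same dose and time and left similar SREBF1 levels, 78.2 CPM in S1 and 69.4 CPM in S4. Their MMP1 counts were 334 in the deeper S1 library and 443 in S4. Both negative control libraries also differed from mock in MMP1: the log2 ratio was 0.69 (0.31 to 1.10) in siNegative and 0.75 (0.37 to 1.17) in ASO-Neg, with mock shared by both. Over the 3 targeting against the 3 control libraries, MMP1 had a log2 ratio of 1.62 (SE 0.581) and an adjusted p of 0.377 by edgeR's quasi-likelihood test, which is not past the threshold of 0.05. When S1 was left out, the log2 ratio was 2.11 and the adjusted p 0.0108 by the same edgeR test, which then called 0.673% of all genes. Over 12 alternatives the adjusted p of MMP1 ran from 2.77e-30 (edgeR without a filter on low counts, which called 1.62% of all genes) to 0.925 (edgeR with chemistry as a term). When siSREBF1 was left out, the log2 ratio was 0.91 (edgeR adjusted p = 0.527). On the strand opposite to MMP1 the annotation holds the pseudogene WTAPP1, which shares 223 of the 2738 exon bases of MMP1, and reads on that strand were 1.28% to 2.42% of the reads of both strands over MMP1.

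MMP8, the collagenase best known from neutrophils, was at 51.9 CPM in mock, 57.1 in ASO-Neg and 50.0 in siNegative, against 62.4 in S1, 56.8 in S4 and 44.9 in siSREBF1. siSREBF1 was the lowest and S1 the highest, and the sides overlapped (log2 ratio 0.05, SE 0.113, edgeR adjusted p = 0.91). The neutrophil genes ELANE, MPO and FCGR3B, by comparison, had 0, 1 and 2 counts in all 6 libraries together. MMP3, stromelysin 1, which cuts many matrix proteins and can activate other MMPs, had 2 counts in mock, 7 in siNegative, 5 in ASO-Neg, 9 in siSREBF1, 4 in S1 and 14 in S4. As CPM these are 0.155, 0.353, 0.298, 0.67, 0.0842 and 0.849. At this depth its 95% counting intervals for the 3 matched log2 ratios all include 0, and it was not tested between the sides because its counts were too low for the filter.

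MMP2, gelatinase A, digests denatured collagen and basement membrane collagen and lies on chromosome 16 (55389700 to 55506691, plus strand). It was at 50.0 CPM in mock, 44.1 in ASO-Neg and 45.7 in siNegative, against 47.2 in S1, 48.1 in S4 and 25.7 in siSREBF1. Only siSREBF1 stood apart from the other 5 libraries. Over its matched control the log2 ratio was -0.83 (-1.01 to -0.65) in siSREBF1, 0.10 (-0.02 to 0.22) in S1 and 0.13 (-0.02 to 0.27) in S4. Between siSREBF1 and the SREBF1 ASO pair, MMP2 differed by a log2 ratio of -0.89 (SE 0.128), with an adjusted p of 0.0503 by edgeR's quasi-likelihood test over 16297 genes. That value just misses the threshold of 0.05, and over 10 alternatives the adjusted p ran from 9.57e-06 to 0.192, with 0.000295 by DESeq2 and 0.0465 by edgeR on counts that ignore strand (0.189% of all genes called). In that fit siSREBF1 was 1 library, assumed to vary like the other groups. The difference between the siRNA effect and the ASO effect, each against its own control, was a log2 ratio of -0.96 for MMP2 (SE 0.241). Only S1 and S4 shared a group in that fit, so its spread came from the difference between these ASOs. It therefore cannot decide whether the siRNA and ASO effects on MMP2 differ.

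**Figure D3:**
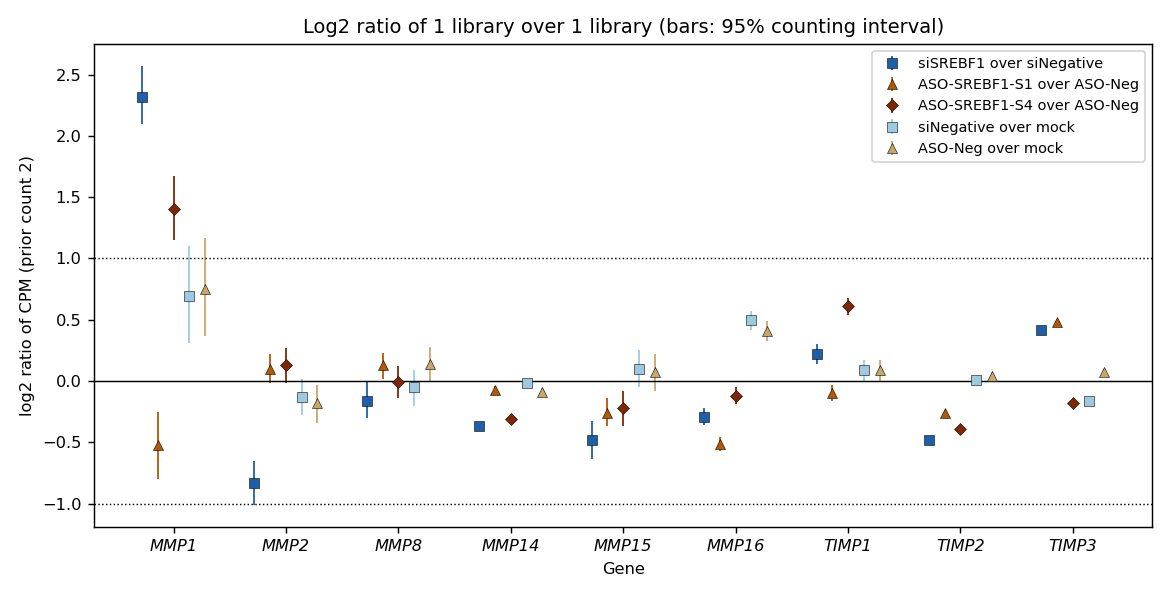
Log2 ratio of TMM-scaled CPM (prior count 2, vertical axis) of each gene except MMP3, with 95% counting intervals as bars. The ratios are siSREBF1 over siNegative, S1 over ASO-Neg, S4 over ASO-Neg, siNegative over mock and ASO-Neg over mock. MMP1 is at 2.32 and 1.40 in siSREBF1 and S4 and at -0.52 in S1, and MMP2 is at -0.83 in siSREBF1.

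The membrane-type enzymes MMP14, MMP15 and MMP16 are anchored at the cell surface. MMP14, which cuts collagen and activates the MMP2 proenzyme, lies on chromosome 14 (22836560 to 22849041, plus strand), MMP15 on chromosome 16 (58025754 to 58046901, plus strand) and MMP16 on chromosome 8. MMP14 was at 1092 CPM in mock, 1027 in ASO-Neg and 1074 in siNegative, against 980 in S1, 828 in S4 and 830 in siSREBF1. All 3 targeting libraries were below all 3 control libraries (1064 ± 33.9 against 879 ± 87.2 CPM, mean ± SD over 3 libraries a side). The log2 ratio was -0.28 (SE 0.0846, edgeR adjusted p = 0.313).

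MMP15 was at 47.7 CPM in mock, 50.0 in ASO-Neg and 51.1 in siNegative, against 41.8 in S1, 42.8 in S4 and 36.5 in siSREBF1. The sides again did not overlap (49.6 ± 1.72 against 40.4 ± 3.37 CPM), and the log2 ratio was -0.30 (SE 0.0807, edgeR adjusted p = 0.271). MMP16 was at 167 CPM in mock, 222 in ASO-Neg and 236 in siNegative, against 156 in S1, 204 in S4 and 193 in siSREBF1. Mock and S1 were low and the sides overlapped (log2 ratio -0.18, SE 0.142, edgeR adjusted p = 0.707). Over mock, MMP16 had a log2 ratio of 0.50 (0.42 to 0.57) in siNegative and 0.41 (0.33 to 0.49) in ASO-Neg, similar in size to its ratio of -0.51 (-0.57 to -0.46) in S1 over ASO-Neg.

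Because MMP14 and MMP15 were both lower in the 3 targeting libraries, the stretches just before their annotated starts are shown, chosen after those values were seen. They are RefSeq sequences of GRCh38.p14, plus strand, and capitals mark GC boxes (GGGCGG or its reverse complement CCGCCC):
MMP14, chr14:22836335-22836559: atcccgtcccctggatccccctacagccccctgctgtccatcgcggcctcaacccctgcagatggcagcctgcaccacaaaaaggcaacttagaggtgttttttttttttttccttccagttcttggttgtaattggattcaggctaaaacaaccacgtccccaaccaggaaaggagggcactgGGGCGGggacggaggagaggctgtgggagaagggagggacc
MMP15, chr16:58025504-58025753: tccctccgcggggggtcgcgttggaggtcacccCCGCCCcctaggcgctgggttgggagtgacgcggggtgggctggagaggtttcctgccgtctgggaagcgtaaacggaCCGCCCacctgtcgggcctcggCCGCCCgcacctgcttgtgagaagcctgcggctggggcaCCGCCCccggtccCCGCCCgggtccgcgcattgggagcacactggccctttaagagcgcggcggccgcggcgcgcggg
The promoter table held MMP8, MMP14, MMP15, TIMP1 and TIMP3 of the 10 genes. In the 250 bases before the RefSeq start, which for MMP14 lies 25 bases past the GENCODE start where its printed stretch ends, GC boxes numbered 1 for MMP14, 5 for MMP15, 2 for TIMP1, 5 for TIMP3 and 0 for MMP8, and 42.6% of all 35116 promoters held at least 1. The letters of a TATA box (TATAAA) were found only in MMP8 among these 5, 110 bases before its RefSeq start, against 10.7% of all promoters. On either strand, the letters of an AP-1 site (TGANTCA, in 6.57% of all promoters), a sterol regulatory element (TCACNCCAC, in 0.883%) and an E-box (CACGTG, in 6.34%) were in none of the 5 windows. A match or its lack describes these letters in this window and says nothing on whether a factor binds.

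TIMP2, which blocks MMPs and also takes part in the activation of MMP2 by MMP14, lies on chromosome 17 (78852977 to 78925387, minus strand). It was at 1281 CPM in mock, 1316 in ASO-Neg and 1289 in siNegative, against 1098 in S1, 1007 in S4 and 924 in siSREBF1. The 3 control libraries were close together, and all 3 targeting libraries were below them (1295 ± 18.3 against 1010 ± 87.1 CPM). The log2 ratio was -0.36 (SE 0.08), and the adjusted p was 0.189 by edgeR, 0.00445 by DESeq2 and 0.172 by limma-voom, with 0.916 as the highest of 12 alternatives (edgeR with chemistry as a term). Against matched controls, the log2 ratio of TIMP2 was -0.48 (-0.51 to -0.45) in siSREBF1, -0.26 (-0.28 to -0.24) in S1 and -0.39 (-0.41 to -0.36) in S4. Over mock it was 0.01 (-0.02 to 0.04) in siNegative and 0.04 (0.01 to 0.07) in ASO-Neg. CEP295NL, on the same strand, shares 224 of the 6209 exon bases of TIMP2. Ambiguous reads had a summary line of their own, which was left out, so reads there may be missing from the TIMP2 count. The same holds for MMP2, which shares 174 of its 4706 exon bases with ENSG00000279030 on the same strand.

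TIMP1, a secreted inhibitor on the X chromosome (47582408 to 47586789, plus strand), was at 144 CPM in mock, 152 in ASO-Neg and 152 in siNegative, against 143 in S1, 232 in S4 and 178 in siSREBF1. S4 was the highest and S1 the lowest, so the sides overlapped (log2 ratio 0.30, SE 0.157, edgeR adjusted p = 0.562). Over ASO-Neg, TIMP1 had a log2 ratio of 0.61 (0.54 to 0.68) in S4 and -0.10 (-0.16 to -0.03) in S1, and over siNegative 0.22 (0.14 to 0.30) in siSREBF1. As for MMP1, the order among the targeting libraries placed S1 last.

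TIMP3, the inhibitor that binds to the matrix, lies on chromosome 22 (32801705 to 32863041, plus strand) and overlaps SYN3 on the other strand with 0 shared exon bases. It was at 1364 CPM in mock, 1431 in ASO-Neg and 1221 in siNegative, against 2002 in S1, 1267 in S4 and 1635 in siSREBF1. S1 and siSREBF1 were above all control libraries and S4 was among them (log2 ratio 0.28, SE 0.143, edgeR adjusted p = 0.546). Against matched controls the log2 ratio was 0.42 (0.39 to 0.45) in siSREBF1, 0.48 (0.46 to 0.50) in S1 and -0.18 (-0.20 to -0.15) in S4. S1 and S4 thus lay on opposite sides of ASO-Neg for MMP1, TIMP1 and TIMP3, and in TIMP3 the library that was high was S1.

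Counted over the genes, 3 of the 9 tested (MMP14, MMP15 and TIMP2) were lower in all 3 targeting than in all 3 control libraries, against 7.87% of the 15123 genes tested, and 0 were higher in all 3, against 8.56%. By edgeR's adjusted p, 0 of the 9 were called, against 0.0595% of all genes (9 genes). At an unadjusted p under 0.05, MMP1 was higher and the same 3 genes were lower, against 4.93% of all genes higher and 5.3% lower. DESeq2 called 1 of the 9, TIMP2 (against 1.12% of all genes), and limma-voom 0 (0.0331%). The median log2 ratio of the 9 was -0.18, against 0.006 for all genes tested. Each library of a side had its own reagent, so the spread behind these p-values includes differences between reagents.

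For the SREBF1 ASO pair against the controls, edgeR called 0 of 10 (0.043% of all genes), and MMP14, MMP15 and TIMP2 were again lower at an unadjusted p under 0.05 (5.86% of all genes, with 5.34% higher), with log2 ratios of -0.24, -0.24 and -0.30. The median log2 ratio of the 10 genes for the ASO pair was 0.10, against 0.005 for all genes tested. In that comparison DESeq2 called TIMP2 (adjusted p = 0.0286, against 1.09% of all genes called) and limma-voom called 0 (0.0491%). With S1 left out, edgeR called MMP1, TIMP1, MMP14 and TIMP2, against 5.94% of all genes. With S4 left out it called TIMP3, with a log2 ratio of 0.56, against 5.37% of all genes. With either ASO left out, the spread came from the control libraries alone, and the other ASO was assumed to vary like them.

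For siSREBF1 against the ASO pair, edgeR called 0 of 10 (0.147% of all genes), DESeq2 called MMP2 (0.779%) and limma-voom called 0 (0.172%). At an unadjusted p under 0.05, MMP1 was higher in siSREBF1 (log2 ratio 1.59, against 4.39% of all genes) and MMP2 and MMP8 (log2 ratio -0.41) were lower (against 4.32%). The difference of the siRNA and ASO effects gave 0 calls among the 10 genes and among all genes (0%) by edgeR, DESeq2 and limma-voom. Only S1 and S4 shared a group in that fit, so its spread came from the difference between these ASOs. SREBF1 itself was not called there (log2 ratio -0.62). The lack of calls thus does not show that the effects were equal.

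By size against the matched control, with at least 1 CPM in 1 of the 2 libraries, 1 of 9 genes was over 2-fold higher in siSREBF1 (MMP1, against 1.46% of all genes) and 0 were 2-fold lower (0.789%). Past 1.5-fold, MMP1 was higher (4.62%) and MMP2 lower (3.65%). In S1, 0 of 9 were past 2-fold (0.708% of all genes higher and 0.567% lower) and 0 past 1.5-fold (3.13% and 2.82%). In S4, 1 of 9 was over 2-fold higher (MMP1, against 2.43%) and 0 lower (0.754%). Past 1.5-fold, 2 were higher in S4 (MMP1 and TIMP1, against 7.03%) and 0 lower (3.03%). Among the negative controls over mock, 0 of 9 passed 2-fold in siNegative (0.483% of all genes higher and 0.455% lower) or in ASO-Neg (0.295% and 1.21%). MMP1 alone passed 1.5-fold, and it was higher in siNegative (2.65% of all genes higher and 2.04% lower) and in ASO-Neg (1.87% and 3.68%).

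Of 17 further MMP and TIMP genes, 13 were under 1 CPM in all 6 libraries and 4 were above it in all 6 (MMP11, MMP17, MMP24 and MMP25). MMP17, a membrane-type enzyme held by a lipid anchor, was at 54.9 CPM in mock, 44.8 in ASO-Neg and 50.5 in siNegative, against 42.4 in S1, 32.7 in S4 and 26.9 in siSREBF1. Of the 4, MMP17 was lower in all 3 targeting than in all 3 control libraries (7.87% of all genes) and MMP11 was higher (8.56%). MMP11 was at 1.44 ± 0.0702 CPM in the control and 2.01 ± 0.731 CPM in the targeting libraries (mean ± SD over 3). It was at 1.54 CPM in S1, 2.85 in S4 and 1.64 in siSREBF1, against 1.36 to 1.49 in the control libraries (edgeR adjusted p = 0.649). Among these genes and the proteases and inhibitors that work with MMPs, edgeR and limma-voom called 0 over all genes in the 3 against 3 comparison. DESeq2 called MMP17, CD44, ADAM12 and ADAMTS17 lower and TFPI2 higher there, against 1.12% of all genes called. In the same comparison, at an unadjusted p under 0.05, 2 of 14 other MMP inhibitors and binding partners were higher and 2 lower, 1 of 9 plasminogen and proprotein convertase genes was higher and 1 lower, 1 of 9 ADAM genes was lower and 3 of 14 ADAMTS genes were lower, against 4.93% of all genes higher and 5.3% lower.

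TFPI2, a protease inhibitor of the matrix, was at 3.8 CPM in mock, 4.77 in ASO-Neg and 4.03 in siNegative, against 7.98 in S1, 10.7 in S4 and 7.74 in siSREBF1, without overlap (log2 ratio 1.06, SE 0.177, edgeR adjusted p = 0.0919). PLAUR, the urokinase receptor that focuses plasminogen activation at the cell surface, was at 12.2, 14.6 and 14.2 CPM in mock, ASO-Neg and siNegative and at 16.2, 24.5 and 22.0 in S1, S4 and siSREBF1. Its sides did not overlap either (log2 ratio 0.59, SE 0.163, edgeR adjusted p = 0.274). Without overlap, 1 of 14 inhibitors and binding partners was higher and 3 were lower, among them CD44 (1125 ± 8.25 CPM in control, 908 ± 69.2 in targeting libraries). Of 9 plasminogen and proprotein convertase genes, 1 was higher and 1 lower, PCSK6 (178 ± 12.3 against 140 ± 15.1 CPM). Over all genes tested, 8.56% were higher and 7.87% lower without overlap.

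Ligands known to induce MMP genes were measured in the same libraries. Of 14 tested in the 3 against 3 comparison, 6 were higher and 0 lower at an unadjusted p under 0.05, against 4.93% and 5.3% of all genes. Of the 14, 5 (IL1A, IL1B, HBEGF, LIF and CXCL8) were higher in all 3 targeting than in all 3 control libraries, against the 8.56% of all genes given above. By adjusted p over all genes in this 3 against 3 comparison alone, 0 were called by edgeR and limma-voom, and 3 by DESeq2 (CXCL8, IL1A and IL1B, against 1.12% of all genes). Their median log2 ratio was 0.38, against 0.006 for all genes. CXCL8, a chemokine, was at 7.28 CPM in mock, 9.18 in ASO-Neg and 11.0 in siNegative, against 16.3 in S1, 25.8 in S4 and 48.2 in siSREBF1 (log2 ratio 1.67, SE 0.362, edgeR adjusted p = 0.185). Like MMP1 it was highest in siSREBF1 and next in S4, but in S1 it stood above the controls. IL1A and IL1B, the interleukin-1 cytokines, are low and were picked out after their values were seen: IL1A was at 1.01, 0.775 and 0.907 CPM in mock, ASO-Neg and siNegative and at 1.77, 2.43 and 7.22 in S1, S4 and siSREBF1. IL1B was at 0.542, 0.238 and 0.403 CPM in the control libraries and at 0.8, 1.27 and 3.5 in the targeting libraries, listed as for IL1A.

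Of 20 AP-1, ETS and other regulators of MMP genes, 4 were higher and 1 lower in the 3 against 3 comparison at an unadjusted p under 0.05, against 4.93% and 5.3% of all genes. There edgeR and limma-voom called 0 of them over all genes, and DESeq2 called JUN, against 1.12% of all genes. Without overlap between the sides, 4 of 20 were higher (FOSL1, FOSB, JUN and ETV1) and 1 lower (ETV4), against 8.56% and 7.87% of all genes. ETS1 was lower in siSREBF1, at 79.2 CPM against 170 in S1, 131 in S4 and 133 to 152 in the control libraries. ETS2 was higher there, at 55.2 CPM against 35.4 in S1, 33.5 in S4 and 40.1 to 40.6 in the control libraries. JUN, a subunit of AP-1, was at 7.44, 8.04 and 6.4 CPM in mock, ASO-Neg and siNegative and at 12.8, 9.16 and 15.1 in S1, S4 and siSREBF1. Its order among the targeting libraries, with S1 above S4, was not that of MMP1.

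**Figure D4:**
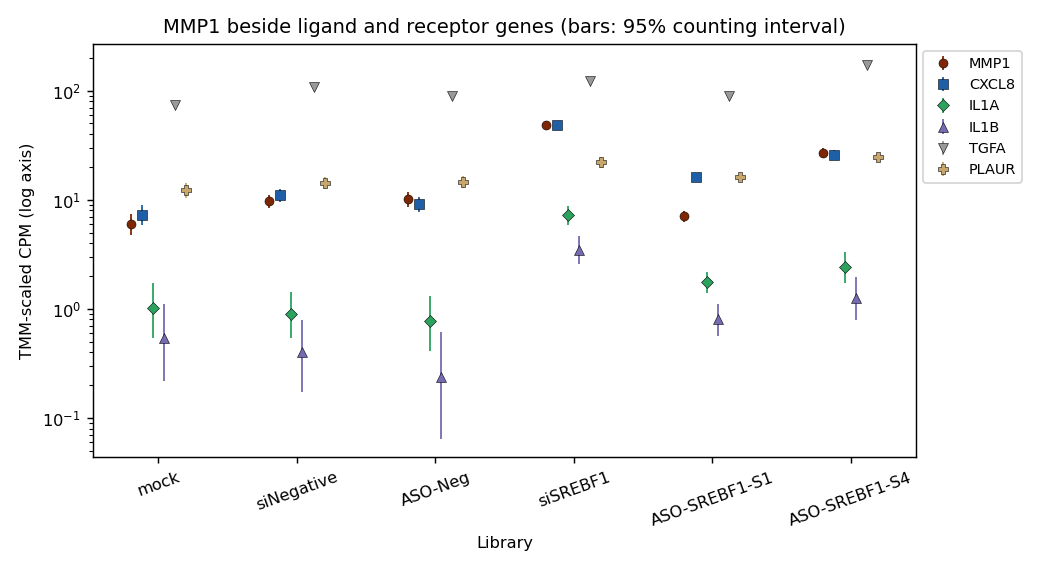
Levels (TMM-scaled CPM, log axis) of MMP1 beside IL1A, IL1B, TGFA, PLAUR and CXCL8 in the 6 libraries, with 95% counting intervals. MMP1 and CXCL8 are both highest in siSREBF1 and next in S4, and in S1 MMP1 is at 7.03 CPM, within the range of the control libraries.

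Among 11050 genes searched, the 3 whose log2 CPM followed MMP1 most closely over the 6 libraries were SIRPB1, TREM1 and SCARA5, with root mean square distances of 0.29, 0.40 and 0.42 on the log2 scale after centring. MMP1 was the one gene of the 10 that met the level and range set for this search. SIRPB1 and TREM1 are receptors known from myeloid cells and SCARA5 is a scavenger receptor. SIRPB1 was at 2.4, 4.17 and 4.43 CPM in mock, ASO-Neg and siNegative and at 2.99, 6.97 and 15.5 in S1, S4 and siSREBF1. TREM1 was at 3.49, 3.46 and 4.94 CPM and at 2.84, 8.91 and 12.4, listed in the same order. Both genes met the mean of 5 CPM set for the search only through S4 and siSREBF1, where MMP1 was high. Such a search returns 3 genes whatever their distance, and the likeness was not tested. The immune markers counted above were under 1 CPM in the same libraries, and the part of other cells in these levels was not tested.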

How the data were processed

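Polyadenylated RNA of 6 HT-144 libraries was sequenced strand-specifically as read pairs, per the labels' protocols. The authors deposited 24 files, each with raw counts per gene for 1 lane. The authors used STAR 2.6.1a, FastQC and GRCh38, per the submitters' processing notes, and the sources used here do not give the annotation. The reverse-strand counts were summed over 4 lanes. Lanes of 1 library differed by no more than sampling noise (chi-square per degree of freedom 1.0 to 1.07, against 1.917 to 8.798 between libraries). Genes took 80.65% to 81.82% of the read pairs, and summary lines naming no gene were left out. A count of 3 was worth 0.0626 to 0.2323 CPM. Of 58735 identifiers, 58207 had a symbol in GENCODE release 44 on GRCh38, which gave coordinates and exon lengths.

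edgeR 4.0.16 (R 4.3.3) used TMM scaling, filterByExpr, the 2-sided quasi-likelihood F test and Benjamini-Hochberg adjustment at 0.05 over all genes tested. Mock stood only on the control side. Alternatives were DESeq2 1.42.0, limma-voom (limma 3.58.1), RLE scaling, no filter, counts that ignore strand, and each library or lane left out. A further alternative took chemistry (none for mock, ASO or siRNA) as a term. Single-library contrasts used a prior count of 2 and 95% exact counting intervals, which cover counting error only. Named genes of other lists were up to 4 per list with the largest ratio in the 3 matched contrasts and 10 CPM in 1 of the 2 libraries; not all are printed. Genes like MMP1 were sought among genes whose mean was 5 CPM or more. The 10 genes and all lists were chosen with earlier results of these data known, and motifs and printed promoters after the values were seen.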

Additional observations from a re-analysis of the deposited data

How the results depend on the processing

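No paired analysis was possible because the replicate numbers name sequencing lanes of 1 library and each group was 1 library. Of 181 alternative values for counts of calls or of genes past a fold, 140 stayed within 1.5 times the reported count and 41 did not. Of 682 for single genes, 607 counted as unchanged. For tested values this means the same direction and side of the threshold, and for ratios without a test a value within their counting interval. A further 35 ratios without a test moved beyond their interval, 22 values passed the threshold only under the alternative and 18 changed direction. For a ratio without a test, a change of direction was counted only where the reported ratio was at least 2-fold.

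Over all genes, 9 were called in the 3 against 3 comparison, 7 for the ASO pair, 24 for siSREBF1 against the ASO pair and 0 for the difference of effects. DESeq2 called 170, 177 and 127 in the first 3 of these. Without a filter on low counts edgeR called 509, 563, 380 and 4 in the 4 comparisons, and the cause was not tested. limma-voom called 5 in the 3 against 3 comparison, and with chemistry as a term edgeR called 0. Leaving out 1 library gave 1 to 103 calls in the 3 against 3 comparison, 1 to 955 for the ASO pair and 2 to 890 for siSREBF1 against the ASO pair. The highest counts came without S1 (103, 955) or without S4 (890), and the count for the ASO pair without S4 was 868. The lowest came without mock or ASO-Neg, and for the ASO pair also without siNegative.

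Among the 10 genes, calls numbered 0 in each of the 4 comparisons as reported. DESeq2 called 1 in each of the first 3, and the fit without a filter called 2, 1 and 2. RLE scaling and counts that ignore strand each called 1 for siSREBF1 against the ASO pair, MMP2. Leaving out 1 library gave 0 to 1, 0 to 4 and 0 to 3 calls in the same order, the highest without S1 and, for the last, also without S4. Genes past 1.5-fold in S1 over ASO-Neg numbered 0 to 1 when 1 lane was left out, those past 2-fold in S4 over ASO-Neg 1 to 2, and those past 1.5-fold over mock 0 to 1 in both siNegative and ASO-Neg. All genes past 2-fold in siNegative over mock numbered 134, and 191 to 204 without 1 lane.

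Log2 ratios that changed direction were small or rested on 1 library. In the 3 against 3 comparison MMP2 was 0.03 without siSREBF1 (-0.33 without S4), and MMP8 was -0.04 without S1 (0.17 without siSREBF1) and -0.02 with chemistry as a term. For the ASO pair without S4, MMP1 was -0.34, MMP2 -0.0014, MMP3 -1.70 and TIMP1 -0.09. Without S1, MMP1 was 1.63, MMP3 1.59, TIMP1 0.65 and TIMP3 -0.06, and TIMP3 was 0.56 without S4. MMP2 was -0.02 without ASO-Neg and 0.08 without mock, and MMP3 was -0.65 by limma-voom. For siSREBF1 against the ASO pair, MMP3 was -0.36, MMP16 -0.10, TIMP1 -0.41 and TIMP3 0.35 without S1, these genes were 2.93, 0.33, 0.34 and -0.27 without S4, and TIMP3 was -0.00067 without a filter. In the difference of effects MMP16 was 0.0023 by DESeq2, 0.003 with RLE scaling and 0.01 without a filter. MMP14, MMP15 and TIMP2 stayed lower in the 3 against 3 comparison under all 12 alternatives, with log2 ratios of -0.35 to -0.24, -0.35 to -0.23 and -0.41 to -0.30. Depth limits MMP3, with 2 to 14 counts a library.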
